A study of Mus musculus with 8 samples.

Results

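The 76 mouse genes named for the mitochondrial ribosome were followed through a study of embryonic fibroblasts that were fed or starved of glucose. They are every symbol in the deposited count table that begins with Mrpl or Mrps and a digit, 47 for the large subunit and 29 for the small subunit, out of 23366 symbols, and all 76 were among the 14418 genes tested. The cells were mouse embryonic fibroblasts of the C57BL/6 strain at passages 3 to 5, either wild-type (WT) or labelled as knockouts (KO) of Kdm3a, a gene for a demethylase of lysine 9 of histone H3. Each genotype was sampled at 0 h in DMEM with 10% fetal bovine serum (fed) and after 12 h in DMEM without glucose, with 10% serum that had been dialyzed (starved). There were 2 libraries in each of the 4 groups. None of the labelled samples was kept 12 h with glucose, or with glucose and dialyzed serum, so loss of glucose, the dialyzed serum and time cannot be told apart, and starvation below means all of them. The labels do not state whether replicates were grown separately; p-values rest on the spread between the 2 libraries of each group, and that spread may be technical.

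Mitochondria keep their own ribosome, which translates the few messages of the mitochondrial genome into core subunits of the respiratory chain and ATP synthase. Its RNAs are made inside the organelle, but all of its proteins are encoded in the nucleus, made in the cytosol and imported. Some of these proteins descend from those of bacterial ribosomes, and others are found only in mitochondrial ribosomes. The small subunit reads the message and the large subunit joins the amino acids. A few symbols are out of step with the assembled particle: the proteins of Mrps30 and Mrps18a sit in the large subunit, and that of Mrps36 is a part of the 2-oxoglutarate dehydrogenase complex. Genes were sorted by symbol below, and by place where the difference matters.

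The libraries held 38407520 to 53602289 counts, and a member had between 134 and 6056 counts in each. Libraries of 1 group correlated at 0.991 to 0.995 and libraries of different groups at 0.840 to 0.919 (Pearson's r over genes). Fed libraries had like levels of Kdm3a, 56.1 and 56.4 CPM (read counts scaled to library size) with the WT label and 55.2 and 55.4 CPM with the KO label, so the labelled loss did not show there. Starved libraries had 176 and 185 CPM with the WT label and 65.4 and 66.7 CPM with the KO label. A count over a whole transcript cannot show a deleted exon, and these libraries are called KO-labelled throughout. The X-inactivation RNA Xist ranged over 31 to 58 counts with the WT label and 43713 to 72498 counts with the KO label, and the Y-linked gene Ddx3y had 1171 to 1251 against 0 to 1, so genotype and sex of the cells cannot be told apart. Of 10 fibroblast markers, Vim stood at 3607 CPM or more and Fn1 at 3450.1 CPM or more in every library, but the collagens moved with starvation and genotype: Col1a1 went from 4752 and 4572 to 240 and 255 CPM in WT and from 1713 and 1678 to 698 and 688 CPM in KO-labelled cells, and Col1a2 and Col3a1 were lower in starved cells too. Thy1 stood at 99.3 to 166 CPM in WT and 4.72 to 6.62 CPM in KO-labelled libraries, and Lum was near 0 and Dcn low in WT. The summed fibroblast list lay between 19557 and 20961 CPM in WT and between 10747 and 13214 CPM in KO-labelled libraries. Of markers of other cells, Ptprc, Emr1 and Hbb-b1 (blood), Tie1 (endothelium), Myod1 and Myog (muscle) and Sox10 (neural) were at 0 in all 8 libraries, while Kdr (endothelium list) went from 1.92 and 2.202 to 54.8 and 52.8 CPM in WT, Cd68 (macrophage list) from 3.63 and 3.36 to 40.9 and 40.7 CPM in KO-labelled cells, and Krt19 (epithelium list) stood at 18.6 to 23.6 CPM in WT and 1.81 to 3.02 CPM in KO-labelled libraries. Other listed markers were present too. Map2 (neural list) stood at 30.3 to 57.7 CPM and Tubb3 (neural list) at 0.81 to 15.8 CPM over the 8 libraries. Cd14 (macrophage list) stood at 16.0 to 17.9 CPM in fed and 2.70 to 6.69 CPM in starved libraries. Of the fibroblast list, Pdgfrb stood at 194 to 387 CPM in WT and 55.5 to 92.3 CPM in KO-labelled libraries. Pdgfra stood at 5.50 to 31.9 CPM in WT and 23.7 to 97.8 CPM in KO-labelled libraries. The part of these markers in the results below was not tested.

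Stretches of DNA just ahead of 6 members are shown first because these genes span the responses described below: Mrpl9, Mrpl45 and Mrps9 rose on starvation in both genotypes, Mrpl41 and Mrps21 fell in both, and Mrps2 rose in the KO-labelled cells. Each is the 250 bases before the gene's start, from RefSeq on build GRCm38.p6, printed in the direction of the gene. Capitals mark matches, on either strand, to GCGC followed by any base and then TGCGC, the motif bound by NRF1, a factor known for driving nuclear genes of mitochondria.
Mrpl9, chr3:94443086-94443335, plus strand: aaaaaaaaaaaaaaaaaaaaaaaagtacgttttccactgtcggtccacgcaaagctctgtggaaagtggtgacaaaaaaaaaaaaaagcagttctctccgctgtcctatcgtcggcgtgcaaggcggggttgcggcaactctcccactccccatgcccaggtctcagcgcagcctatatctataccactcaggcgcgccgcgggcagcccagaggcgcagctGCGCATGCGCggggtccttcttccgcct
Mrpl45, chr11:97315466-97315715, plus strand: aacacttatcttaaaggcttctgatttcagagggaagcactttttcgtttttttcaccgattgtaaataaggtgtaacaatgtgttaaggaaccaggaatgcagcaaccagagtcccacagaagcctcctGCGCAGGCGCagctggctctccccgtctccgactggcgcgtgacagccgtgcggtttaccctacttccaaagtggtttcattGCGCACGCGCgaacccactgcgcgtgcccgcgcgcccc
Mrps9, chr1:42850983-42851232, plus strand: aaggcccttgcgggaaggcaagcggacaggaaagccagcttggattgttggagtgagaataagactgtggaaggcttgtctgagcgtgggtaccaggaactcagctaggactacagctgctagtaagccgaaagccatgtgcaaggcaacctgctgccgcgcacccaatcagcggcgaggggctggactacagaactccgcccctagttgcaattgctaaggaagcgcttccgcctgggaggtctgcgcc
Mrpl41, chr2:24975099-24975348, minus strand: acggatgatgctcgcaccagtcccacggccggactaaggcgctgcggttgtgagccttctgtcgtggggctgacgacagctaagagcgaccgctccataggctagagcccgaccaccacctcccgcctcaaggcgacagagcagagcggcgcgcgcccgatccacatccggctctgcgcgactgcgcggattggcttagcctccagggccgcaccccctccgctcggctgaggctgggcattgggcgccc
Mrps21, chr3:95871515-95871764, minus strand: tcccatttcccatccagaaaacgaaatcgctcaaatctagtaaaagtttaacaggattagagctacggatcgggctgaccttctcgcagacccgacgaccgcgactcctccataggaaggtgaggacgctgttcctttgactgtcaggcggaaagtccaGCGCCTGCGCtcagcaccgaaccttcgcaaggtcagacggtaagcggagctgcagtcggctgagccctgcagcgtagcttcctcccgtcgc
Mrps2, chr2:28467816-28468065, plus strand: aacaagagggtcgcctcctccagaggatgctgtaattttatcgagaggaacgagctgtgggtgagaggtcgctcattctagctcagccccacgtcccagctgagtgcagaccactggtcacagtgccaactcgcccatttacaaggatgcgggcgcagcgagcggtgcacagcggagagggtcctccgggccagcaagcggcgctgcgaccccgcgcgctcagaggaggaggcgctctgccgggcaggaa

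Mrpl45 carries 2 such matches, Mrpl9 and Mrps21 carry 1 each, and the windows of Mrps9, Mrpl41 and Mrps2 hold none. Of the 67 members with an entry in the RefSeq promoter table, 9 had the NRF1 letters (13.4%), against 3.86% of all 27025 promoters. They were in 8 of 41 large and 1 of 26 small subunit genes. The ETS letters CCGGAAG, the core bound by GABP, another known driver of mitochondrial genes, stood in 16 of 67 (23.9%), against 7.05% of all promoters. The YY1 letters AAGATGGCG were in 2 members (2.99% against 0.607%), the E-box CACGTG in 5 (7.46% against 6.05%), and the ATF4 composite letters TGATGCAA in none (0.818% of all promoters). Both strands were searched, and none of these letter strings holds another of them whole. Of the 9 members with the NRF1 letters 6 rose and 3 fell in starved WT cells, and of the 16 with the ETS letters 9 rose and 4 fell, on the scale described next; of the 38 with none of the 5 motifs 20 rose and 11 fell. In KO-labelled cells 8 rose and 1 fell, 10 rose and 3 fell, and 27 rose and 5 fell, in the same order. Of all genes tested, 36.7% rose and 44.8% fell in WT, and 39.4% rose and 40.3% fell in KO-labelled cells. For 62 of the 67 members, the bases just after the start were found in a transcript of the gene. Mrpl34 and Mrps22, which carry the ETS letters, were not among these. In some carriers all 250 bases of the window lay in annotated exons: Mrpl18, Mrpl51 and Mrpl53 for ETS, and Mrpl39 for NRF1. A match is a description of the letters, and no binding was measured.

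Starvation of WT cells was followed by a split within the mitochondrial ribosome. Of the 76 genes, 46 rose (36.7% of all tested genes rose) and 18 fell (44.8% fell), while 12 did not pass the test, and their median log2 fold change was 0.40, against -0.17 for all genes tested. Of the 76, 13 rose and 2 fell by more than 2-fold, against 2164 and 3952 of all 14418 genes tested. Calls are at an adjusted p under 0.05 in edgeR's quasi-likelihood test, with libraries scaled by TMM, which sets the bulk of genes level. The choice of scale matters here: scaled by library totals instead, 31 members rose (23.6% of all genes) and 35 fell (59.8%), the members' median was -0.05, and the median of all genes moved from -0.17 to -0.63. Counts of the 76 genes made up 0.288% and 0.293% of the fed WT libraries and 0.295% and 0.283% of the starved ones, which overlap. The genes thus held their share of the counts in WT while standing above the middle of the other genes. The largest risers and fallers named below for the starvation responses kept their direction and call with library totals. In bulk RNA, fewer cells of a type and less RNA per cell cannot be told apart.

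Among the small subunit symbols, 16 of 29 rose and 5 fell (median 0.29). The largest rise was that of Mrps30, at 42.7 and 40.0 CPM in fed and 169 and 157 CPM in starved WT libraries, a 3.94-fold rise (log2 fold change 1.98 ± 0.049 SE, adjusted p = 2.8e-19). The fed and starved libraries lie far apart. Exons of Mrps30 overlap those of B430218F22Rik, and without a known strand the reads of an overlapping pair cannot be told apart. The same holds for other members named below, among them Mrps25 (with Nr2c2), Mrps7 (Gga3 and Mif4gd), Mrpl9 (Oaz3) and Mrpl21 (Ighmbp2). Mrps9, whose protein has a bacterial relative in the head of the small subunit, went from 13.6 and 13.6 to 43.3 and 39.6 CPM (3.05-fold). Mrps18b, one of 3 mitochondrial copies related to bacterial S18, went from 38.1 and 41.4 to 115 and 114 CPM (2.88-fold). Mrps27, a pentatricopeptide-repeat protein of the small subunit, went from 34.2 and 29.6 to 73.7 and 71.4 CPM (2.27-fold). In each of these 4 genes both starved libraries were above both fed ones.

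The small subunit genes that fell did so by less. Mrps25 went from 63.9 and 63.8 to 51.3 and 48.1 CPM (log2 fold change -0.36 ± 0.051) and Mrps21, the relative of bacterial S21, from 33.2 and 35.1 to 27.1 and 27.5 CPM (-0.32 ± 0.064). Mrps12, whose bacterial relative sits at the decoding centre and bears on accuracy, changed by -0.30 ± 0.084, and by -0.22 (adjusted p = 0.0516) without fed WT replicate 1. Mrps7, a protein that nucleates the head of the small subunit, changed by -0.14 ± 0.050, a call that was lost with DESeq2 (adjusted p = 0.28) and without fed WT replicate 1 (adjusted p = 0.101), starved WT replicate 1 (0.0696) or starved WT replicate 2 (0.788). The fifth, Mrps2, changed by -0.13 ± 0.057 (adjusted p = 0.046), and its call was lost whichever of the 8 libraries was left out.

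Among the large subunit symbols, 30 of 47 rose and 13 fell (median 0.42). Mrpl9 went from 53.8 and 53.8 CPM in fed to 154 and 155 CPM in starved WT libraries, a 2.87-fold rise with hardly any spread (1.52 ± 0.043, adjusted p = 2.6e-18). Mrpl1, the relative of the bacterial protein that forms the mobile L1 stalk, went from 12.9 and 15.9 to 37.5 and 40.0 CPM (1.43 ± 0.087). Mrpl38 went from 23.2 and 24.4 to 62.5 and 60.9 CPM (1.38 ± 0.056). Mrpl32, whose protein is known to be trimmed by the inner-membrane m-AAA protease before it enters the ribosome, went from 18.5 and 22.5 to 53.4 and 48.8 CPM (1.32 ± 0.076). All 4 genes were higher in both starved libraries than in either fed one.

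The steepest fall of any member in WT was also in the large subunit. Mrpl41 went from 15.3 and 16.5 CPM to 4.48 and 4.06 CPM, a level 3.73-fold lower (-1.90 ± 0.11, adjusted p = 9.5e-13). Mrpl36, the relative of the small bacterial protein L36, went from 17.9 and 19.2 to 9.06 and 8.33 CPM (2.13-fold lower), and its exons overlap those of Ndufs6, a gene of respiratory complex I. Mrpl50 went from 26.3 and 27.6 to 15.5 and 14.9 CPM (-0.83 ± 0.087). Mrpl18, the relative of the bacterial protein that binds 5S RNA, went from 57.3 and 59.6 to 33.7 and 32.6 CPM (-0.82 ± 0.055), and its exons overlap those of Tcp1. In none of these genes did the fed and starved libraries overlap.

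**Figure D1:**
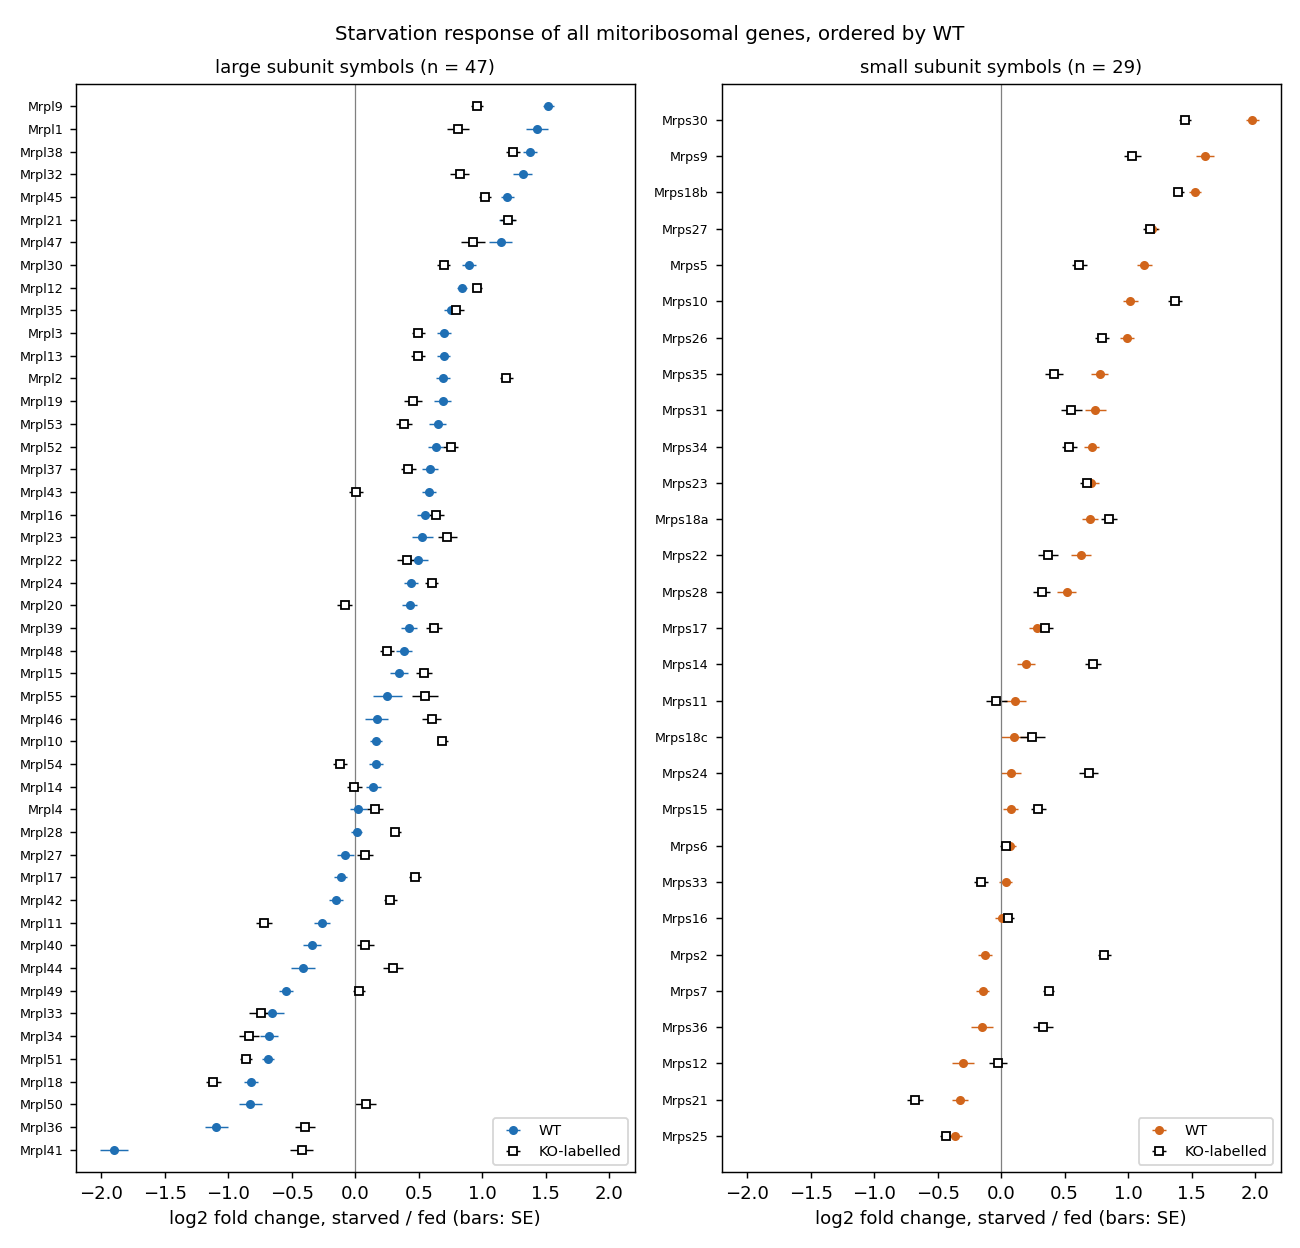
Log2 fold change, starved against fed, of the 47 large subunit symbols (left) and the 29 small subunit symbols (right), ordered by the WT value. Filled circles are WT, open squares are KO-labelled cells, and bars are standard errors; in WT the values run from -1.90 (Mrpl41) to 1.98 (Mrps30).

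The members were also sorted by origin, as a description, first for the WT response. Of the 10 small subunit symbols with no bacterial relative, 8 rose and 1 fell (median 0.73), while of the 18 with one, 8 rose and 4 fell (median 0.10). The median of the first class included Mrps30, whose protein sits in the large subunit. In the large subunit the order was the other way: 9 rose and 7 fell of 17 with no bacterial relative (median 0.17), and 21 rose and 6 fell of 30 with one (median 0.47). With library totals, 8 rose and 2 fell of the small subunit symbols without a bacterial relative and 5 rose and 12 fell of those with one; 6 rose and 9 fell of the large subunit symbols without one and 12 rose and 11 fell of those with one. Of all genes, 36.7% rose and 44.8% fell in WT with TMM, and 23.6% and 59.8% with library totals. In KO-labelled cells 8 rose and 2 fell of the 10 small subunit symbols without a bacterial relative (median 0.55). Of the 18 with one, 13 rose and 1 fell (median 0.36). The medians kept the WT order, but the shares rising were closer, at 80% and 72.2%, against 80% and 44.4% in WT. Of the large subunit symbols in KO-labelled cells, 10 rose and 3 fell of 17 without a bacterial relative (median 0.28). Of the 30 with one, 22 rose and 5 fell (median 0.52). Of all genes, 39.4% rose and 40.3% fell in KO-labelled cells with TMM. Mrps36 belongs to neither class.

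In KO-labelled cells 54 of 76 members rose (39.4% of all tested genes rose) and 11 fell (40.3% fell). The median of the members was 0.44, against -0.02 for all genes. By more than 2-fold, 9 members rose and 1 fell, against 1897 and 2888 of all 14418 genes tested. On the scale of library totals, 40 rose (29.6%) and 21 fell (50.2%), with a median of 0.18. Both subunits took part, with 32 of 47 large subunit symbols rising and 8 falling (median 0.46) and 22 of 29 small subunit symbols rising and 3 falling (median 0.42). The share of counts held by the 76 genes went from 0.274% and 0.275% to 0.314% and 0.315%, with both starved libraries above both fed ones.

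Mrps30 again rose the most, from 29.7 and 30.3 CPM to 84.0 and 79.6 CPM (2.73-fold), followed in the small subunit by Mrps18b (1.40 ± 0.046), Mrps10 (1.37 ± 0.057) and Mrps27 (1.18 ± 0.059). Mrps10, the relative of bacterial S10, stood at 23.4 and 22.9 CPM fed and at 61.0 and 59.0 CPM starved. In the large subunit the largest rises were those of Mrpl38 (1.24 ± 0.052), Mrpl21 (1.21 ± 0.063), Mrpl2 (1.19 ± 0.054) and Mrpl45 (1.02 ± 0.046). Mrpl45, whose protein sits at the exit of the peptide tunnel and ties the ribosome to the inner membrane, stood at 39.7 and 42.1 CPM fed and at 81.7 and 83.9 CPM starved. Mrpl2, a relative of a bacterial protein at the heart of the large subunit, went from 29.8 and 32.4 to 71.4 and 70.2 CPM.

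Mrpl18 fell the most in KO-labelled cells, from 45.1 and 44.5 to 21.3 and 20.1 CPM (2.17-fold lower). Mrpl51 changed by -0.86 ± 0.046, Mrpl34 by -0.84 ± 0.076 and Mrpl33 by -0.74 ± 0.098, all of them small proteins of the large subunit. In the small subunit Mrps21 changed by -0.67 ± 0.063 and Mrps25 by -0.44 ± 0.049. Mrps33 changed by -0.16 ± 0.056, a call that was lost without fed KO-labelled replicate 1 (adjusted p = 0.0771) or starved KO-labelled replicate 1 (adjusted p = 0.189).

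**Figure D2:**
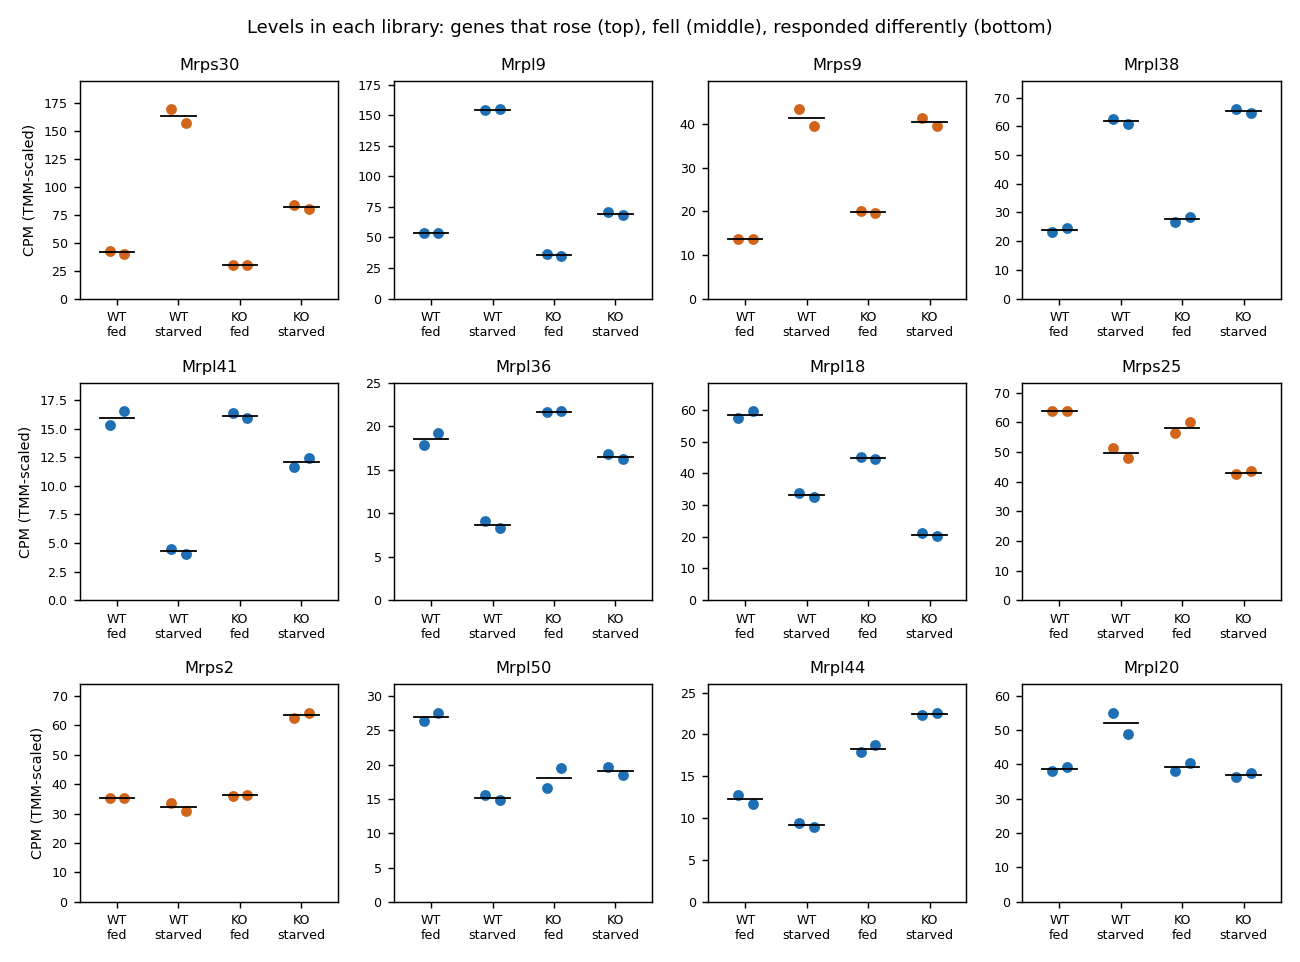
Level of 12 members in each library, in TMM-scaled CPM on axes that start at 0; dots are the 2 libraries of a group (blue, large subunit symbols; orange, small) and lines their means. The top row rose on starvation in both genotypes, the middle row fell in both, and the bottom row responded differently, as with Mrps2, which stood at 33.7 and 30.9 CPM in starved WT and at 62.6 and 64.3 CPM in starved KO-labelled libraries.

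The 2 starvation responses share no library. Of the 76 genes 42 rose in both, which is 91.3% of those that rose in WT (76.7% over all genes) and 77.8% of those that rose in KO-labelled cells (71.6% over all genes). A further 9 fell in both: Mrpl11, Mrpl18, Mrpl33, Mrpl34, Mrpl36, Mrpl41, Mrpl51, Mrps21 and Mrps25, which is 50% of those that fell in WT (67.3% over all genes) and 81.8% of those that fell in KO-labelled cells (74.9% over all genes). Mrpl17, Mrpl42, Mrpl44, Mrps2 and Mrps7 fell in WT and rose in KO-labelled cells, and Mrpl54 did the opposite, although the calls of Mrpl17, Mrpl42, Mrps2 and Mrps7 in WT and of Mrpl54 in both were lost under some of the other settings, the rises of Mrpl42 and Mrpl44 in KO-labelled cells were lost with library totals, and with library totals Mrpl54 fell in both. Mrpl27, Mrps6, Mrps11 and Mrps16 passed in neither. Across the 76 genes the log2 fold changes correlated at r = 0.81, and across all genes tested at r = 0.63; genes are not independent replicates.

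**Figure D3:**
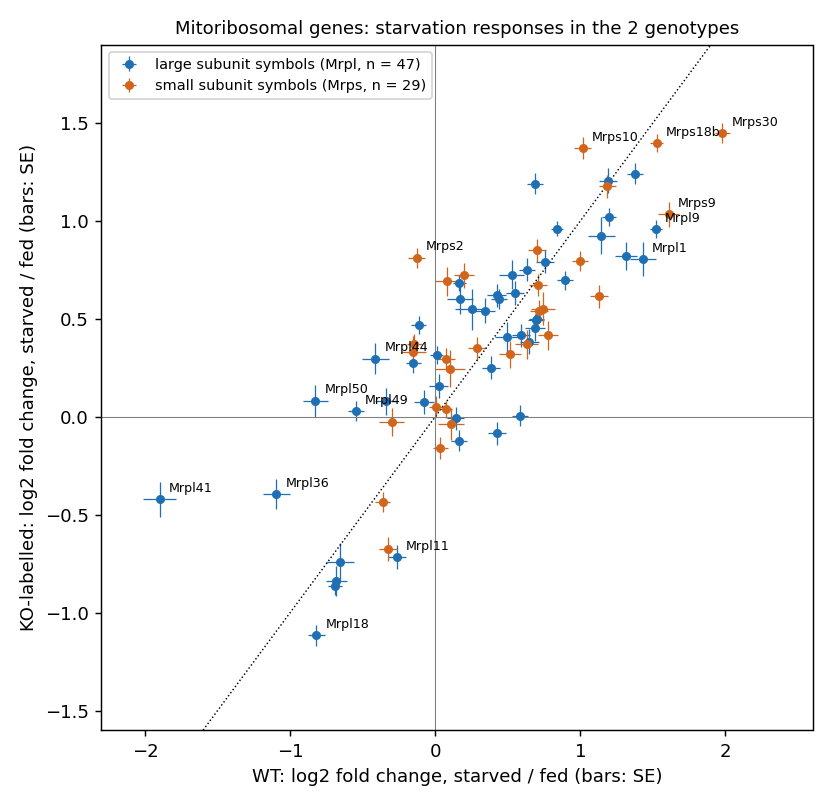
Log2 fold change, starved against fed, in WT (horizontal) and KO-labelled cells (vertical) for 47 large (blue) and 29 small (orange) subunit symbols, with standard errors. The dotted line marks equal responses; Mrpl41 lies far off it, at -1.90 in WT and -0.42 in KO-labelled cells.

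The difference between the responses was tested as an interaction. It was higher in KO-labelled cells for 20 members (34.1% of all genes) and lower for 23 (30.4%), shares at or below those of all genes, and 33 did not pass. With library totals 37 were higher (43.7%) and 9 lower (21.5%). Without starved WT replicate 2 the members lower numbered 37, and without fed KO-labelled replicate 2 they numbered 15. Mrpl41 differed most, by 1.48 ± 0.145 (adjusted p = 1.5e-08): it stood at 16.4 and 15.9 CPM in fed and 11.7 and 12.4 CPM in starved KO-labelled libraries, a smaller fall than in WT. Mrps2, the relative of bacterial S2, differed by 0.94 ± 0.077: it stood at 35.4 and 35.1 CPM in fed and 33.7 and 30.9 CPM in starved WT libraries, and went from 35.9 and 36.4 to 62.6 and 64.3 CPM in KO-labelled ones. Mrpl50 differed by 0.91 ± 0.12, with 16.6 and 19.5 CPM fed and 19.7 and 18.5 CPM starved in KO-labelled cells, groups that overlap. Mrpl44, whose protein has a fold like that of RNase III, differed by 0.71 ± 0.124. On the other side, the rise was smaller in KO-labelled cells for Mrpl1 (-0.63 ± 0.123), Mrps9 (-0.57 ± 0.095), Mrpl9 (-0.56 ± 0.062) and Mrps30 (-0.53 ± 0.070).

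Between genotypes the genes stood lower in KO-labelled cells more often than higher on the TMM scale. In fed cells 16 were higher (34.5% of all genes) and 42 lower (39.8%), with a median of -0.16 against -0.06 for all genes. No member differed by more than 2-fold, while of all 14418 genes 1796 were higher and 1621 lower by that much. With library totals the counts were 26 higher (40.3%) and 27 lower (32.9%). The 2 members that differed most were of the small subunit. Mrps6 stood at 125 and 129 CPM in fed WT and at 66.3 and 63.8 CPM in fed KO-labelled libraries (-0.96 ± 0.041), although its exons overlap those of Slc5a3, a myo-inositol transporter gene. Mrps16 stood at 55.3 and 56.2 against 29.4 and 30.5 CPM (-0.90 ± 0.050) and Mrps33 at 50.4 and 52.2 against 31.7 and 31.3 CPM (-0.70 ± 0.054). Mrps35 differed by -0.65 ± 0.072. Mrps12 (0.64 ± 0.075), Mrps9 (0.54 ± 0.072), Mrps11 (0.42 ± 0.083) and Mrps14 (0.32 ± 0.067) were higher. In the large subunit, Mrpl34 (-0.78) differed by more than Mrps33: Mrpl34, Mrpl42, Mrpl21 and Mrpl33 were lower, by log2 differences from -0.78 to -0.63, and Mrpl44, Mrpl23, Mrpl15 and Mrpl46 higher, from 0.48 to 0.58.

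In starved cells 26 members were higher in KO-labelled libraries (41.9% of all genes) and 40 lower (37.7%), with a median of -0.18 against 0.07 for all genes; with library totals 39 were higher (54.2%) and 23 lower (26.2%). This comparison shares its libraries with both responses above. Mrpl9 was lower (-1.15 ± 0.042), as were Mrpl11 (-1.03 ± 0.065), Mrpl34 (-0.94 ± 0.079), Mrps35 (-1.01 ± 0.070), Mrps6 (-0.997 ± 0.042), Mrps30 (-0.996 ± 0.046) and Mrps33 (-0.90 ± 0.056). Mrpl41 (1.496 ± 0.114), Mrpl44 (1.29 ± 0.090), Mrps2 (0.98 ± 0.055), Mrpl36 (0.93 ± 0.091), Mrpl46 (0.92 ± 0.083) and Mrps12 (0.91 ± 0.080) were higher. Mrpl44 stood at 9.46 and 8.94 CPM in starved WT and at 22.3 and 22.6 CPM in starved KO-labelled libraries, and its exons overlap those of Wdfy1.

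The 2 subunits were then set against each other. The median log2 fold change of large subunit symbols exceeded that of small ones by 0.14 in WT and 0.04 in KO-labelled cells. Within single libraries, by contrast, the median level (log2 CPM) of large minus small subunit symbols was 0.18 and 0.18 in fed against 0.02 and 0.11 in starved WT, and 0.19 and 0.11 in fed against -0.08 and -0.04 in starved KO-labelled libraries, lower after starvation. A median of fold changes and a fold change of medians are different quantities, and here they pointed opposite ways. With Mrps30 and Mrps18a counted as large and Mrps36 left out, the differences were 0.18 and 0.07. Summed levels gave another picture. Large subunit symbols summed to 1664 and 1689 CPM in fed and 2242 and 2163 CPM in starved WT, and to 1490 and 1500.3 CPM in fed and 1976 and 1982 CPM in starved KO-labelled libraries. Small subunit symbols summed to 990.3 and 1003 CPM in fed and 1479 and 1414 CPM in starved WT, and to 838 and 834 CPM in fed and 1208 and 1209 CPM in starved KO-labelled libraries. The ratio of large to small therefore went from 1.68 and 1.68 to 1.52 and 1.53 in WT, and from 1.78 and 1.80 to 1.64 and 1.64 in KO-labelled cells. It went down in both, as did the large minus small median level, although the median log2 fold change was higher for large subunit symbols. Counted by place, the ratio was 1.95 and 1.94 in fed and 1.99 and 2.00 in starved WT, the opposite direction, and 2.02 and 2.04 against 1.99 and 1.98 in KO-labelled cells. Without Mrps30 it was 1.76 and 1.75 against 1.71 and 1.72 in WT and 1.84 and 1.87 against 1.76 and 1.76 in KO-labelled cells, so in WT much of the fall by symbol rests on that 1 gene, and in KO-labelled cells a good part of the fall is present without it.

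**Figure D4:**
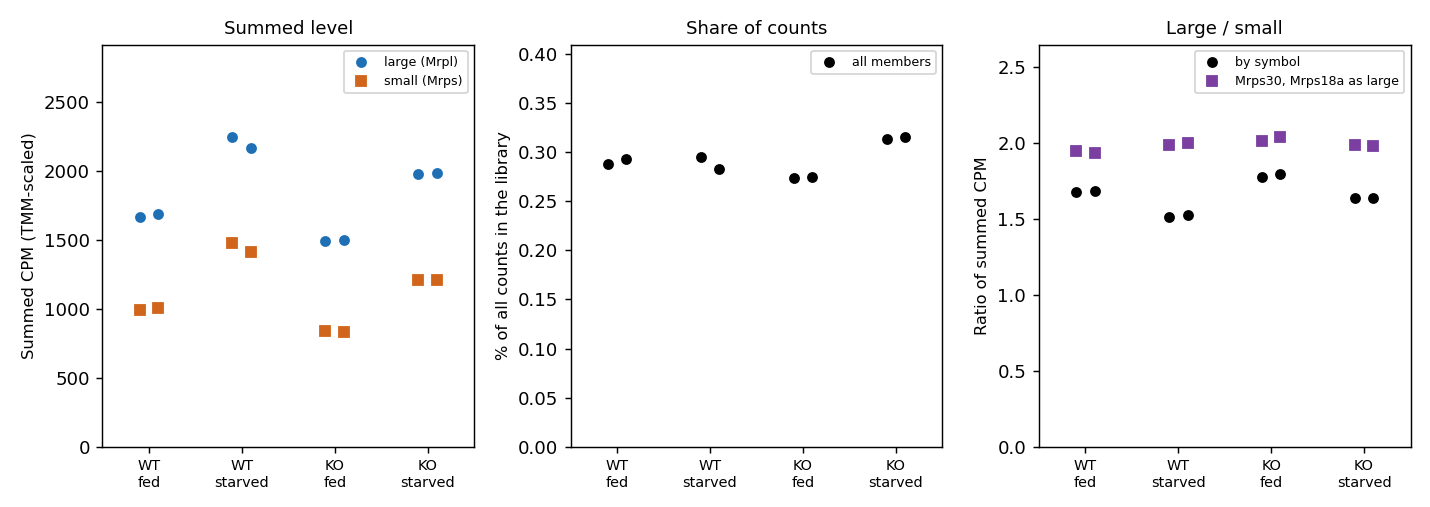
Per library: summed TMM-scaled CPM of large and small subunit symbols (left), the share of all counts held by the 76 genes (middle) and the ratio of the 2 sums (right), by symbol (black) and with Mrps30 and Mrps18a counted as large (purple). All axes start at 0; in WT the ratio by symbol goes from 1.68 to 1.52 and 1.53, and by place from 1.94 and 1.95 to 1.99 and 2.00.

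Per kilobase of transcript, the levels of the members spread widely. In fed WT cells the mean of the 2 libraries was highest for Mrps6 (150 CPM per kilobase), Mrpl52 (99.0), Mrpl42 (90.3) and Mrps21 (84.4) and lowest for Mrpl1 (4.19) and Mrpl47 (3.19), with a median of 23.5. In starved WT cells Mrps6 (158) and Mrpl52 (153) stood at the top and Mrpl41 (5.50) at the bottom. In fed KO-labelled cells Mrpl54 (86.4) led and Mrpl47 (2.63) was lowest, and in starved ones Mrpl52 (119) led and Mrps35 (4.75) was lowest. Exons of Mrps6 overlap those of Slc5a3, and exons of Mrpl47 those of Ndufb5 and Actl6a. Without a known strand, reads of these overlapping genes cannot be told apart. Proteins of 1 particle are needed in like amounts, and none of these mRNA levels measures protein.

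Genes that work with these proteins were followed as fixed lists. All 7 mitoribosomal proteins with other names (Dap3, Chchd1, Ptcd3, Aurkaip1, Gadd45gip1, Ict1 and Mrp63) rose in both genotypes, with medians of 0.68 and 0.71; with library totals 4 of them rose and 1 fell in WT. Aurkaip1, a small subunit protein, went from 53.2 and 51.0 to 96.3 and 86.8 CPM in WT and from 41.4 and 39.6 to 70.8 and 72.6 CPM in KO-labelled libraries. Beside the lists that follow, 36.7% of all genes rose and 44.8% fell in WT, and 39.4% rose and 40.3% fell in KO-labelled cells. With library totals these shares were 23.6% and 59.8% in WT, and 29.6% and 50.2% in KO-labelled cells. Of 28 assembly factors 14 rose and 8 fell in WT (10 and 13 with library totals), and 21 rose and 4 fell in KO-labelled cells (17 and 6). Noa1, a GTPase of ribosome assembly, changed by 1.21 ± 0.059 in WT, while Mterfd2, now called Mterf4, which brings an RNA methyltransferase to the large subunit, went from 20.4 and 23.9 to 4.54 and 3.998 CPM. In KO-labelled cells Mterfd2 stood at 24.5 and 25.6 CPM fed and 20.8 and 21.1 CPM starved.

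Of 15 translation factors 8 rose and 4 fell in WT (5 and 9 with library totals), and 10 rose and 1 fell in KO-labelled cells (7 and 4). Mtif2, the initiation factor, went from 16.2 and 16.0 to 4.39 and 3.57 CPM in WT, and from 18.6 and 20.1 to 16.6 and 16.1 CPM in KO-labelled cells, where the call was lost without fed KO-labelled replicate 2 (adjusted p = 0.149) or starved KO-labelled replicate 2 (0.0802). Lrpprc, which stabilises mitochondrial messages, rose in both (1.20 ± 0.040 and 1.10 ± 0.041). Of 19 tRNA synthetases of mitochondria 10 rose and 7 fell in WT (7 and 8 with library totals) and 11 rose and 5 fell in KO-labelled cells (10 and 7).

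Nrf1, Gabpa and Yy1 are among the factors whose motifs were searched. Nrf1 stood higher in starved cells of both genotypes, while Gabpa and Yy1 differed in direction between genotypes on the TMM scale. Nrf1 went from 38.8 and 39.5 to 73.4 and 69.7 CPM in WT and from 34.2 and 34.7 to 47.4 and 45.7 CPM in KO-labelled cells. Gabpa, the DNA-binding part of GABP, stood at 83.8 and 83.6 against 93.4 and 89.1 CPM in WT (0.12 ± 0.044, but -0.33 with library totals), and went from 82.0 and 82.1 to 53.2 and 57.2 CPM in KO-labelled cells. Yy1 went from 74.97 and 74.2 to 127 and 126 CPM in WT and from 82.2 and 83.7 to 59.5 and 61.0 CPM in KO-labelled cells. Of the list of 12 such factors and regulators 9 rose and 1 fell in WT (8 and 3 with library totals), and 7 rose and 2 fell in KO-labelled cells (5 and 5); Tfam, the packaging factor of mitochondrial DNA, was the 1 that fell in WT (-0.44 ± 0.058).

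Cytosolic ribosomal protein genes moved much more as 1 body: 82 of 84 rose in WT and 83 of 84 in KO-labelled cells, with medians of 1.01 and 0.76. Subunits of the respiratory chain were mixed, with 51 of 80 rising and 19 falling in WT (median 0.27) and 46 rising and 20 falling in KO-labelled cells (median 0.25). With library totals the respiratory chain counts became 16 rising and 49 falling in WT and 30 rising and 32 falling in KO-labelled cells. On that scale 81 of the 84 cytosolic ribosomal protein genes rose in WT. Of all genes, 23.6% rose and 59.8% fell in WT with library totals, and 29.6% and 50.2% in KO-labelled cells.

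**Figure D5:**
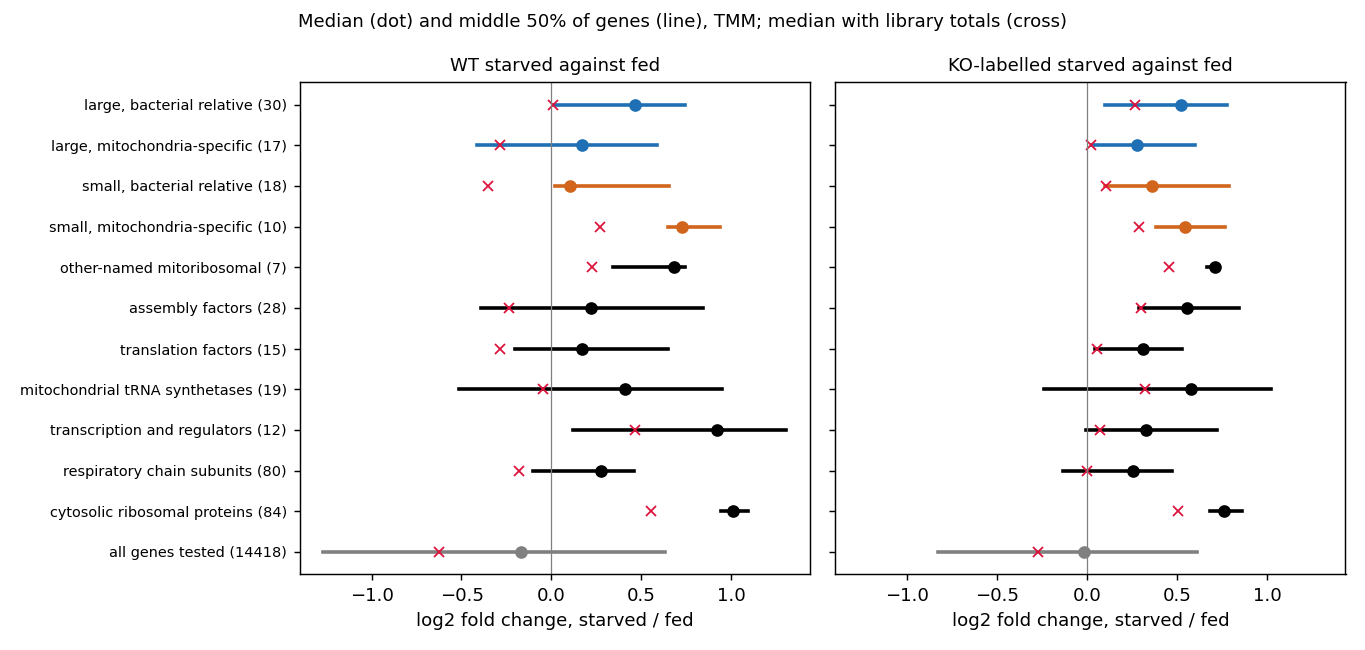
Median (dot) and middle 50% (line) of the log2 fold changes, starved against fed, in WT (left) and KO-labelled cells (right) for the mitoribosomal classes and related gene lists, with the number tested in brackets; red crosses are medians with library totals. All genes tested lie at -0.17 (WT) and -0.02 (KO-labelled), cytosolic ribosomal proteins at 1.01 and 0.76, and small subunit genes without a bacterial relative at 0.73 and 0.55.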

How the data were processed

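RNA of 8 libraries was measured by RNA-seq. The authors deposited raw read counts per RefSeq transcript (31055 rows); TopHat2 2.0.9, bedtools and the build mm9 appear, without roles, in the submitters' processing notes. For strand, handling of reads with several matches, and filters, the method is not stated in those notes or the labels. Values in 4 other columns, which matched no label, were not used. For each symbol the row with the highest total was kept. The test was edgeR 4.0.16 (R 4.3.3; scaling by TMM, filterByExpr, quasi-likelihood F test on all 4 groups, 4 residual degrees of freedom, Benjamini-Hochberg adjustment over 14418 genes). Log2 fold changes carry standard errors from that fit; CPM use the same scaling. Simulated data had 100 genes changed at each of 2 sizes for WT starved against fed, with the other genes left level. There the test recovered 64% of 1.5-fold and 83% of 2-fold changes, with 14 false calls (14007 genes). In the real comparison 36.7% of genes rose and 44.8% fell, so these rates may not hold for it. Named members are, per comparison, subunit and direction, the 4 with the largest called change, every member called in the rarer direction where 5 or fewer, and per related list the largest called change each way; other members named were chosen after their values were seen. Members and lists were chosen with earlier results of these data known. Transcript lengths are from GENCODE, matched by RefSeq ID, and promoters from a RefSeq table on GRCm38.p6; 81 of 90 looked-up symbols of the smaller related lists were in the table. Exon overlaps, and neighbours, were read from annotation of that build, which is not the mm9 build of the counts. Alternatives were library totals, DESeq2 1.42.0 and its size factors in edgeR, no filter or a minimum of 5 CPM, summed isoform rows, only the compared groups, a replicate block, an adjusted p of 0.01, subunits by place, and leaving out each library.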

Additional observations from a re-analysis of the deposited data

Results flagged for a closer look

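The starvation response differed between KO-labelled and WT cells for these members by the interaction test (edgeR, adjusted p under 0.05), given as the KO-labelled minus the WT log2 fold change. In the large subunit it was higher for Mrpl41 (1.48), Mrpl50 (0.91), Mrpl44 (0.71) and Mrpl36 (0.70), and lower for Mrpl1 (-0.63), Mrpl43 (-0.58), Mrpl9 (-0.56) and Mrpl20 (-0.51). In the small subunit it was higher for Mrps2 (0.94), Mrps24 (0.61), Mrps14 (0.52) and Mrps7 (0.52), and lower for Mrps9 (-0.57), Mrps30 (-0.53), Mrps5 (-0.51) and Mrps35 (-0.36). With library totals Mrps35 no longer passed (-0.16, adjusted p = 0.176), and the other 15 kept their direction and call. These are the largest changes in each direction and subunit, out of 43 called members. Mrpl20 stood at 38.1 and 39.2 CPM in fed and 55.0 and 48.8 CPM in starved WT libraries, and at 38.0 and 40.4 against 36.3 and 37.5 CPM in KO-labelled ones. Mrpl43, whose exons overlap those of Twnk (Peo1 in the table), the mitochondrial DNA helicase gene, rose by 0.58 ± 0.056 in WT and changed by 0.01 ± 0.055 in KO-labelled cells.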

How the results depend on the processing

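With library totals, members fell in 35 cases in starved WT cells (18 with TMM) and in 21 in starved KO-labelled cells (11). Between genotypes the counts became 26 higher and 27 lower in fed cells and 23 lower in starved cells, and the interaction 37 higher and 9 lower. Counted by place in the ribosome, large minus small medians were 0.18 (WT response), -0.0262 (fed genotypes) and -0.13 (starved genotypes), against 0.14, 0.02 and -0.05 by symbol. At an adjusted p under 0.01 the interaction had 13 lower. Leaving out 1 library, members higher ranged over 42 to 50 (WT response), 53 to 54 (KO-labelled response), 13 to 21 (fed genotypes), 18 to 26 (starved genotypes) and 15 to 22 (interaction), and members lower over 13 to 16, 9 to 12, 33 to 42, 38 to 42 and 15 to 37, in the same order. The interaction reached 37 lower without starved WT replicate 2 and 15 without fed KO-labelled replicate 2. Large minus small medians ranged over 0.0541 to 0.163, -0.0056 to 0.0559, 0.0204 to 0.0692, -0.0926 to 0.00075 and 0.0311 to 0.103; the lowest WT value came without fed WT replicate 1, and the difference in starved genotypes was 0.00075 without starved KO-labelled replicate 1. Of the called members, 43 of 64 (WT response), 49 of 65 (KO-labelled response), 40 of 58 (fed genotypes), 40 of 66 (starved genotypes) and 24 of 43 (interaction) kept their call under each refit (other scalings, filters and tools, summed rows, compared groups only, the block and each library left out; the stricter threshold was run on counts only). Library totals turned 5 calls in the WT response (Mrpl10, Mrpl14, Mrpl54, Mrps14 and Mrps17) and 3 between starved genotypes (Mrpl45, Mrpl54 and Mrps26).

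Replicate numbers did not pair the libraries: replicate differences of different groups correlated at -0.02 to 0.01. With the replicate number as a block, 45 members were higher and 17 lower in the WT response, 54 and 10 in the KO-labelled response, 16 and 41 between fed genotypes, 26 and 40 between starved genotypes, and 20 and 22 in the interaction; large minus small medians were 0.14, 0.04, 0.02, -0.05 and 0.05. Groups of 2 libraries limit the precision of every value, and small changes may be missed at this number.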

Other observations

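Among the 76 genes, 32 (42.1%) have a neighbour that starts within 1000 bases and runs the other way, against 2149 of 19325 protein-coding symbols (11.1%). In 29 such pairs the neighbour was tested and is no member: both genes moved in the same direction in 13 pairs in WT and in 18 in KO-labelled cells (r of -0.34 and -0.16 over 29 pairs, as a description). Mtbp, which shares exon bases with Mrpl13, rose by 1.08 ± 0.044 in WT, where Mrpl13 rose by 0.70 ± 0.053. In all, 23 members share exon bases with another gene. Of the 53 that do not, 34 rose and 12 fell in WT (median 0.43), where 36.7% of all genes rose and 44.8% fell. In KO-labelled cells 40 of the 53 rose and 8 fell (median 0.50), where 39.4% of all genes rose and 40.3% fell.

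Members with longer transcripts had the higher median fold change, but the link was weak. Of the 38 with transcripts over 1224.5 bases, 26 rose and 10 fell in WT (median 0.59), and of the 38 shorter ones 20 rose and 8 fell (median 0.17). In KO-labelled cells 30 of the longer ones rose and 3 fell (median 0.58), and 24 of the shorter ones rose and 8 fell (median 0.33). Beside these counts, 36.7% of all genes rose and 44.8% fell in WT, and 39.4% rose and 40.3% fell in KO-labelled cells. Over the 76 genes transcript length and log2 fold change had a Spearman's rho of 0.27 in WT and 0.30 in KO-labelled cells, and over all tested genes with a length (97.5%) of 0.01 and -0.09. These are descriptions over genes of the same libraries.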
